A study of Mus musculus with 4 samples.

Results

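Circular chromosome conformation capture (4C) joins DNA fragments that lie close to one another in the nucleus and amplifies those joined to 1 chosen fragment, the bait. The bait was the H19 imprinting control region (ICR) of distal mouse chromosome 7. The ICR is methylated on the paternal copy, binds the insulator protein CTCF on the maternal copy, and thereby sets which copy expresses H19 and its neighbour Igf2. Contacts of a bait with other chromosomes, called trans contacts, are usually far rarer than contacts with its own chromosomal surroundings, and imprinted loci have been studied as candidate trans partners of the H19 ICR. The regions described here are 15 long tiled stretches on 10 autosomes other than chromosome 7. They were chosen by place and length: every tiled region that spans more than 100000 bp by its name on such an autosome, without 4 regions of chromosomes 6, 9, 12 and 15 that were set aside. They held 149205 of the 388160 tiling probes, and were 15 of 26 long regions and of 123 regions in all. The longest region under the limit spanned 40861 bp and the shortest one above it 800470 bp.

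4C product of R1, a line of mouse embryonic stem (ES) cells, was compared with that from embryoid bodies (EB), aggregates formed by ES cells that differentiate in culture, at 12 days. Neither group carried a labelled genetic change or treatment, and both come from 1 cell line. There were 2 arrays per group. The series' design text calls the replicates biological, each a pool of 3 samples, and states that the array was built on places preferred in an earlier genome-wide 4C screen of ES cells, EB and other tissues, so the tiled regions are not a random part of the genome. Each array carried Cy5-labelled 4C product beside Cy3-labelled genomic DNA cut with MboI, called input here. The array measures DNA, so that markers of ES cells or of differentiated cell types could not be checked, and a contact present in few cells cannot be told apart from a weak contact in many. The scan batch equalled the replicate number: the ES and EB arrays of replicate 1 shared a scan day, and those of replicate 2 shared another.

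The regions spanned 800470 to 1431767 bp, 13795796 bp in all, with 6581 to 15495 probes of 50 bases each and a median start-to-start spacing of 52 bp. All positions are those of mouse build mm6. An annotation of that build was not used here, so that genes, exons and introns are not named. Median 4C intensity of the tiling probes was 969 and 1521 on ES replicates 1 and 2, and 543 and 1638 on EB replicates 1 and 2. The random control probes had medians of 963, 1481, 534 and 1607 in the same order, so a typical probe lay slightly above the controls. The 4C signal is given below as log2 over the tiling median of the array, and a probe is called positive at 1 log2 unit (2-fold) or more. All shares rest on 2 arrays per group, which limits their precision.

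Few probes of the 15 regions were positive, and their share was higher on both replicate 2 arrays than on both replicate 1 arrays, whatever the cell state. In ES, 1259 probes (0.844%) were positive in replicate 1 and 1746 (1.17%) in replicate 2. In EB, the first replicate had 709 (0.475%) and the second 2086 (1.40%). Both EB arrays thus lay outside the ES range, 1 below and 1 above. The mean was 1.01% ± 0.231 (SD, n = 2) in ES and 0.937% ± 0.653 (SD, n = 2) in EB, a difference of -0.0704 percentage points (exact permutation test, two-sided, p = 1; the smallest p that 2 arrays against 2 can give is 0.33). Within batch 1 the EB array was lower by -0.369 points, and within batch 2 the EB array was higher by 0.228 points.

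The same turn was seen in each of the 15 regions. The EB array had the lower share in 15 of 15 regions in batch 1 and the higher share in 15 of 15 in batch 2. EB replicate 1 was the lowest of the 4 arrays in 15 regions and EB replicate 2 the highest in 14. No region had both EB arrays above or both below the ES arrays; over all 123 regions, 2.44% had both EB arrays above and 8.94% both below. The mean over the EB arrays was below the ES mean in 11 of 15 regions. Except for the separation, these counts were not made over all 123 regions. The turn was not particular to the 15 regions. In batches 1 and 2, EB minus ES was -0.379 and 0.263 points in the 4 regions set aside. It was -0.41 and 0.387 in the long X regions and -0.301 and 0.0904 in the small regions. In the other long regions of chromosome 7 it was -0.347 and 0.135. EB was lower in both batches in the distal chromosome 7 region and in probes without a region label.

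**Figure D1:**
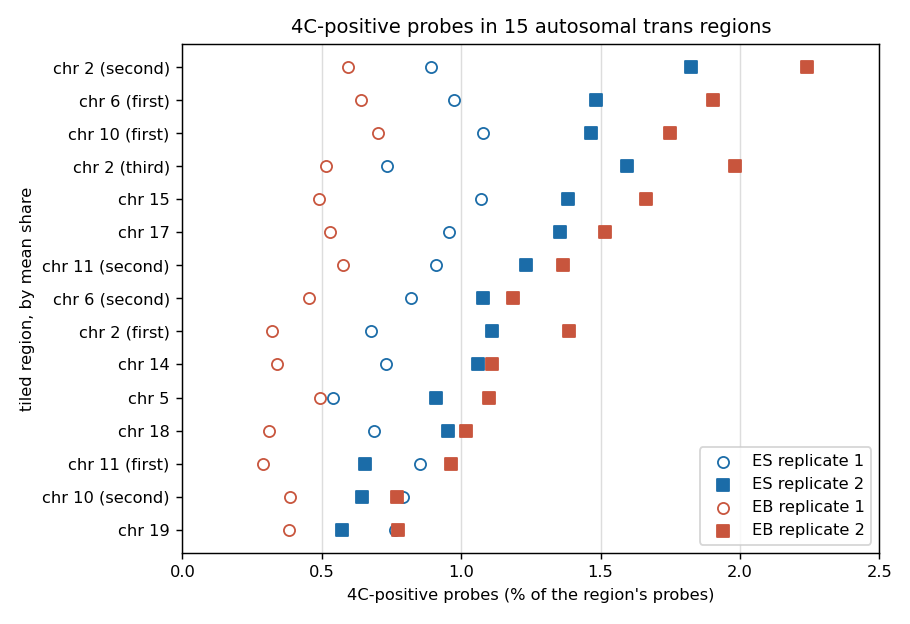
Share of probes of each region, in percent, whose 4C signal was at least 2-fold over the array's tiling median, 1 point per array. Rows are the 15 regions ordered by their mean over the 4 arrays, and regions of 1 chromosome are told apart by their order along it. In every row EB replicate 1 lies lowest, between 0.290% and 0.701%, and the ES and EB points of replicate 2 move together down the rows.

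By the mean over the 4 arrays, the share was highest in a region of chromosome 2, 156613333 to 157423331, with 0.891% and 1.82% of probes positive on ES replicates 1 and 2 and 0.594% and 2.24% on EB replicates 1 and 2. A region of chromosome 6, 30386384 to 31336727, had shares of 0.976% and 1.48% (ES) and of 0.641% and 1.90% (EB). A region of chromosome 10, 12572462 to 13411548, had shares of 1.08% and 1.46% (ES) and of 0.701% and 1.75% (EB). That region was the highest on both replicate 1 arrays, and the region of chromosome 2 on both replicate 2 arrays. In these 3 regions the replicate 2 arrays of both states stood above both replicate 1 arrays.

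By the same mean, the share was lowest on chromosome 19, 51432135 to 52232713, with 0.763% and 0.572% in ES and 0.382% and 0.775% in EB. The second region of chromosome 10, 97059373 to 97897710, had shares of 0.793% and 0.643% (ES) and of 0.386% and 0.771% (EB). The first region of chromosome 11, 11425301 to 12332192, had shares of 0.853% and 0.653% (ES) and of 0.290% and 0.962% (EB). On single arrays the lowest regions differed: chromosome 5 on ES replicate 1, chromosome 19 on ES replicate 2, the first of chromosome 11 on EB replicate 1 and the second of chromosome 10 on EB replicate 2. In the 3 regions with the lowest means, ES replicate 1 was above ES replicate 2, the reverse of the regions at the top of the order.

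The other regions lay between these. On chromosome 11, 22394555 to 23784535, 0.910% and 1.23% of probes were positive in ES and 0.574% and 1.37% in EB. On chromosome 14, 68586580 to 69452434, the shares were 0.731% and 1.06% in ES and 0.339% and 1.11% in EB. On chromosome 18, 12760302 to 13580998, they were 0.687% and 0.952% in ES and 0.310% and 1.02% in EB. These last are the regions, beside the first of chromosome 10, that held a run of positive probes on any array. The remaining members were chromosome 2, 121708326 to 122525113 (0.676% and 1.11% in ES, 0.321% and 1.39% in EB) and 173309228 to 174171652 (0.734% and 1.59%, 0.514% and 1.98%). On chromosome 5, 87703761 to 88505129, 0.539% and 0.910% were positive in ES and 0.494% and 1.10% in EB. Chromosome 6, 58668972 to 59469442, had shares of 0.821% and 1.08% (ES) and of 0.456% and 1.19% (EB). Chromosome 15, 96662451 to 97523668, had shares of 1.07% and 1.38% (ES) and of 0.488% and 1.66% (EB). Chromosome 17, 10659073 to 12090840, had shares of 0.955% and 1.36% (ES) and of 0.529% and 1.52% (EB).

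The order of the regions was most alike between the arrays scanned together in batch 2. Over the 15 regions, the shares of ES replicate 2 and EB replicate 2 correlated at r = 0.975 and rho = 0.989, against r = 0.476 and rho = 0.514 between the ES arrays and r = 0.731 and rho = 0.725 between the EB arrays. In batch 1 the correlation was r = 0.602 and rho = 0.632. ES replicate 2 and EB replicate 1, which share neither state nor batch, correlated at r = 0.735 and rho = 0.736, and ES replicate 1 and EB replicate 2 at r = 0.482 and rho = 0.471. These values describe regions of the same 4 libraries, which share probes and base composition, and have no test.

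The positive share of the 15 regions was lower than at the bait's own chromosome end. In the long region of distal chromosome 7, 8.87% and 11.8% of probes were positive in ES and 1.28% and 2.90% in EB; the 15 regions were lower on 4 of 4 arrays (exact sign-flip test over arrays, two-sided, p = 0.125, the smallest that 4 arrays can give). In the random controls 0.503%, 0.335%, 0.0838% and 1.01% were positive (6, 4, 1 and 12 of 1193 probes; ES, then EB), and the 15 regions were higher on 4 of 4 arrays (exact sign-flip p = 0.125). The 4 autosomal regions set aside were close, with 0.836% and 1.24% in ES and 0.457% and 1.5% in EB. The 15 regions exceeded them on 2 of 4 arrays, by -0.0358 points on average (exact sign-flip p = 0.5). The long regions of the X chromosome had 0.856%, 1.15%, 0.446% and 1.54%, and the 15 regions were higher on 2 of 4 arrays (exact sign-flip p = 0.875). Beside the other long regions of chromosome 7 (0.773% and 0.922% in ES, 0.426% and 1.06% in EB), the 15 regions were higher on 4 of 4 arrays, by 0.178 points on average (exact sign-flip p = 0.125). They were also higher than the small regions on 4 of 4 arrays, by 0.125 points (exact sign-flip p = 0.125). These 6 comparisons between parts of the array reach no p under 0.125, before any adjustment.

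Positive probes of the 15 regions were often probes with bright input. Of all their probes, 5.06% were in the brightest 5% of input signal on the array design. Of the positive probes, 32.3% and 51.8% in ES and 71.4% and 42.2% in EB were among them. A bright-input probe was positive in 5.38% and 12.0% of cases in ES and 6.70% and 11.7% in EB, and any other probe in 0.602%, 0.594%, 0.143% and 0.851%. In the dimmer 50% of probes by input, 0.244%, 0.135%, 0.0791% and 0.106% were positive, below the share in all random controls on 4 of 4 arrays, narrowly so on EB replicate 1 (0.0791% against 0.0838%). In the top 1% by input, 24.7%, 33.6%, 29.7% and 28.5% were positive. The part of input brightness in the positive share of a region was not tested. Over the 15 regions the positive share correlated with the share of bright-input probes at r = 0.376 and 0.789 in ES and 0.415 and 0.736 in EB, as a description. The region of chromosome 2 with the highest share held 6.69% bright-input probes, and the region of chromosome 19 with the lowest share 1.98%. Chromosome 18 stood apart with 6.61% bright-input probes and a mean positive share of 0.742%.

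**Figure D2:**
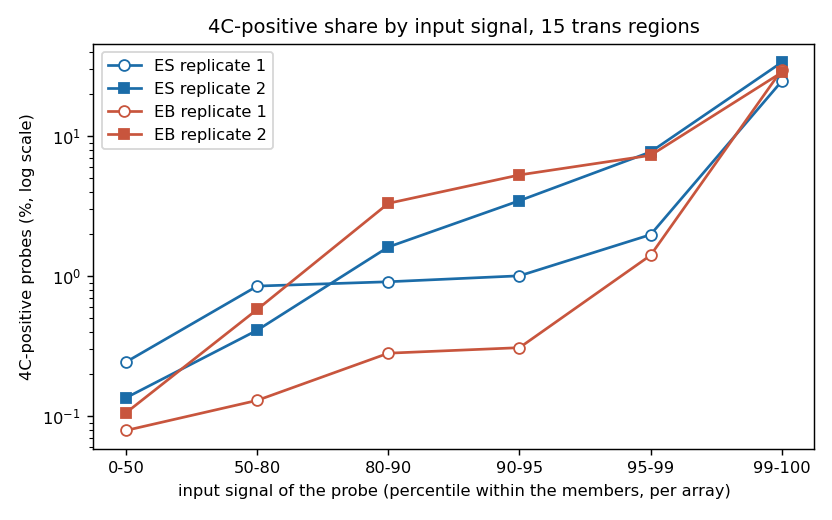
Share of 4C-positive probes of the 15 regions, in percent on a log scale, by the input signal of the probe in percentile bins within each array. On each array the share is lowest in the dimmer 50% of probes, at most 0.244%, and highest in the top 1%, at least 24.7%.

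Requiring the ratio to input as well changed which arrays shared probes. The ratio is log2 of 4C over input, centred on the tiling median of the array. Of the positive probes, 390 of 1259 and 144 of 1746 in ES, and 75 of 709 and 150 of 2086 in EB, also had a ratio of at least 2-fold, which is 31.0%, 8.25%, 10.6% and 7.19%. In the distal chromosome 7 region the same shares were 68.9%, 73.6%, 69.5% and 35.2%. By the 4C signal alone, the batch 2 arrays of different states shared 1057 positive probes (60.5% of those of ES replicate 2 and 50.7% of those of EB replicate 2), the ES arrays 323 (25.7% and 18.5%) and the EB arrays 419 (59.1% and 20.1%). The batch 1 arrays shared 294 (23.4% and 41.5%). ES replicate 2 and EB replicate 1, alike in neither state nor batch, shared 431 (24.7% and 60.8%), and ES replicate 1 and EB replicate 2 shared 292 (23.2% and 14%). With the ratio required, the ES arrays shared 9 (2.31% and 6.25% of their probes), the EB arrays 6 (8% and 4%), the batch 2 arrays 3, the batch 1 arrays 0, and the pairs alike in neither 2 and 0. The 9 probes of the ES arrays all lay in 2 short sites, 7 of them on chromosome 14 and 2 on chromosome 11, which are described below by position. Of the probes of the 15 regions, 248 were positive on all 4 arrays by 4C signal, and 246 of these (99.2%) were bright in input. With the ratio required, 0 probes were positive on all 4 arrays. Median input of the 248 was 5.6 log2 units over the array median. The scanner's upper limit for the 4C signal was 6.08 and 5.43 (ES) and 6.92 and 5.32 (EB). Such probes thus had little room for a 2-fold ratio, and this 0 tells nothing about contacts.

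**Figure D3:**
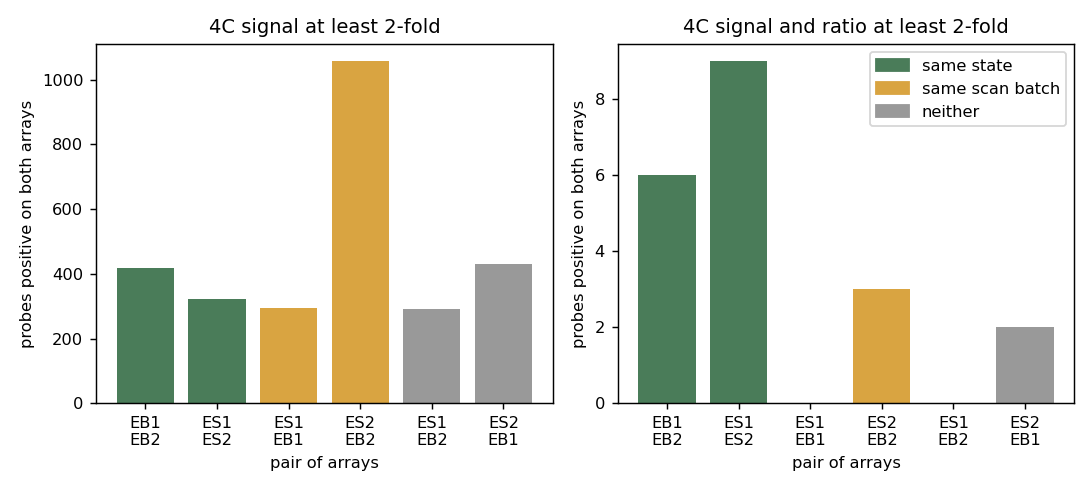
Number of probes of the 15 regions positive on both arrays of each pair, by 4C signal (left) and by 4C signal and ratio to input (right); the vertical scales differ. Green bars are pairs of 1 state, yellow bars pairs of 1 scan batch, grey bars neither. By signal alone the batch 2 pair shares most, 1057 probes, and with the ratio required the ES pair shares 9 probes, all in 2 short sites, and the EB pair 6.

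ES replicate 1 had an uneven surface. When its spots were divided into 768 blocks of 32 by 32, 36 blocks had more than 5% positive tiling probes, with a highest share of 15.03% and a median of 0.533% over all blocks. The other 3 arrays had 0 such blocks, with highest shares of 3.81%, 4.54% and 3.35%. The dense blocks held 7018 probes of the 15 regions, which were positive in 7.20% of cases on ES replicate 1, against 0.530% outside. They accounted for 505 of the 1259 positive probes of that array (40.1%), and for 54.5% of the 897 that were positive on that array alone. Without these blocks on any array the shares were 0.530% and 1.18% in ES and 0.469% and 1.41% in EB, and the EB minus ES difference was 0.0812 points in place of -0.0704. The 4 arrays then separated into 2 replicate 1 arrays near 0.5% and 2 replicate 2 arrays above 1%.

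**Figure D4:**
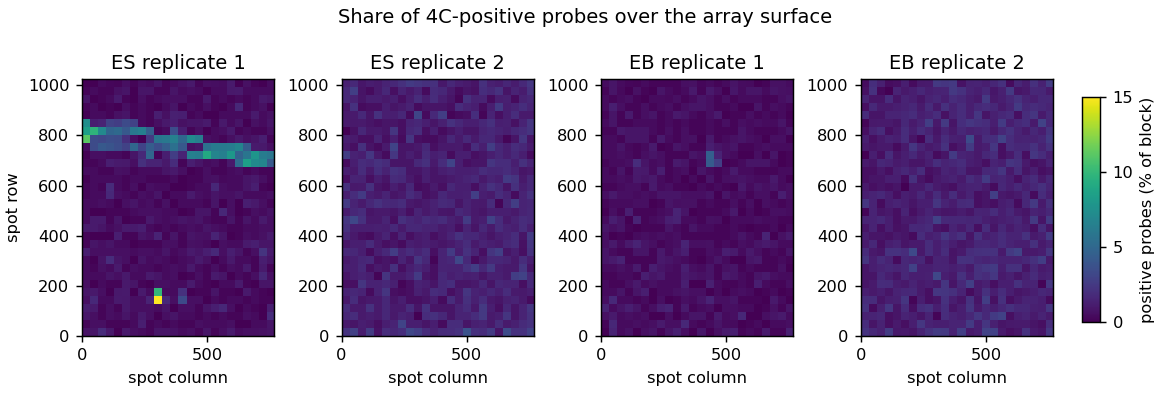
Share of 4C-positive tiling probes outside the distal chromosome 7 region, in percent, in blocks of 32 by 32 spots over each array, with spot column and row as axes. A band of dense blocks crosses ES replicate 1, and its highest block, apart from the band, reaches 15.03%; the highest block of the other arrays is 4.54%.

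Positive probes in the 15 regions stood alone. A captured restriction fragment usually spans several neighbouring probes. Of the positive probes, 97.7% and 94.6% in ES and 98.0% and 95.1% in EB had no positive probe beside them. In the distal chromosome 7 region this was 13.0% and 14.9% in ES and 30.5% and 65.7% in EB. Positive probes were joined into a run where 3 or more followed each other and none lay over 300 bp from the next. Runs held 7 probes in ES replicate 1 (1 run) and 14 in ES replicate 2 (3 runs). In EB they held 0 probes in replicate 1 and 12 in replicate 2 (4 runs). The share of probes in runs differed by -0.00302 percentage points between EB and ES (exact permutation test, two-sided, p = 0.667). In 11 of the 15 regions no array had a run.

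Of the runs, 1 was seen on both arrays of a state, and none on an ES and an EB array. It lay on chromosome 14, 69359036 to 69359397, and held 7 probes. The mean 4C signal over these probes, in log2 units, was 3.39 and 5.04 on the ES arrays, while the EB arrays read -0.072 and -0.022. All 7 probes were positive on both ES arrays and none on either EB array. On ES replicate 2 the probes starting at 69359192 and 69359296 stood at 5.43 log2 units, the scanner's upper limit for that array, so their level there is a lower bound. The EB minus ES difference was -4.26 log2 units (SE 0.666, limma adjusted p = 0.00316), -3.46 within batch 1 and -5.06 within batch 2, and ES was at least 9.28-fold higher when EB is set at the 2-fold level. This p is a description, because the probes were chosen by the values it tests. Of 297 stretches chosen this way over the array, 97% passed. Centred log2 ratios were 3.82 and 5.68 in ES and 0.951 and 0.35 in EB. Input over the 7 probes was below the array median on all 4 arrays, at -0.445, -0.679, -1.01 and -0.411 log2 units, so the site is not among the bright-input probes described above.

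The edges of the chromosome 14 site were sharp. The probe that starts 52 bp after the last one of the run reached at most 0.212 log2 units on any array. The nearest probe before the run starts 218 bp earlier and reached at most -0.193. Among the 7 probes, ES replicate 2 read from 4.41 to 5.43 log2 units, while ES replicate 1 read from 1.63 to 5.20. The range read was wider on ES replicate 1. Values of ES replicate 2 are cut off at its upper limit of 5.43, so the true spreads cannot be compared. Both EB arrays stayed between -0.317 and 0.247 over the same probes.

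**Figure D5:**
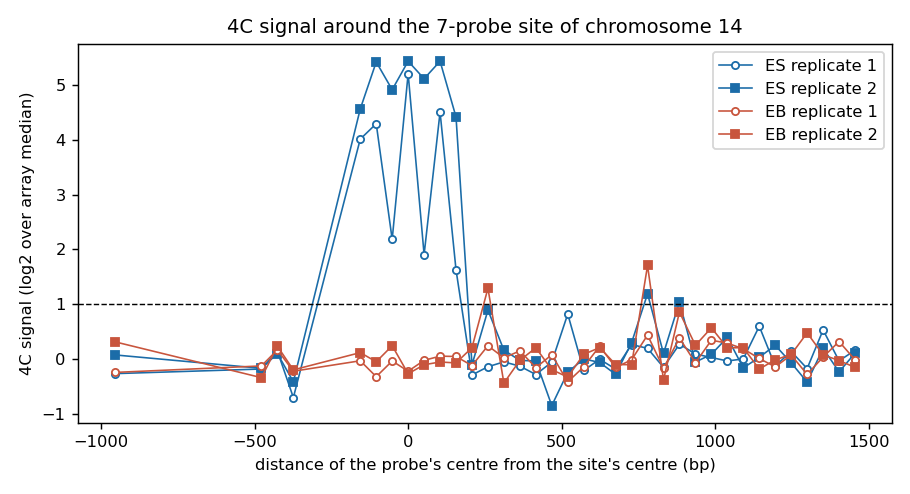
4C signal of single probes around the 7-probe site of chromosome 14, in log2 units over the array's tiling median, against distance from the site's centre in bp; the dashed line is the 2-fold level. The ES arrays rise above 1.6 log2 units on all 7 probes of the site, and the EB arrays stay at or below 0.247 there.

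The other site positive on at least 2 arrays lay on chromosome 11, 22875589 to 22875982, with 3 probes. For a site, only probes that passed the 2-fold level on 2 or more arrays were joined, with no regard to state. The ES arrays read 3.12 and 4.25 log2 units here, and the EB arrays 0.393 and 0.706. Of the 3 probes, 2 were positive in ES replicate 1 and 3 in ES replicate 2, against 0 in EB replicate 1 and 1 in EB replicate 2. The probes starting at 22875589 and 22875654 were positive on the ES arrays alone. The last probe was positive on the replicate 2 array of each state, and the site reaches 3 probes only with it. At 22875589, ES replicate 2 stood at the scanner's upper limit (5.43 log2 units), so that level is a lower bound. Over all 3 probes, the EB minus ES difference was -3.14 (SE 0.554, limma adjusted p = 0.00479), and ES was at least 6.44-fold higher. Here too the p is a description, because the probes were chosen by the values it tests. Without EB replicate 1 the difference was -2.98 and the call was lost (limma adjusted p = 0.0525); 1 EB array is left there, which is assumed to vary like the ES arrays. Centred log2 ratios were 1.22 and 3.38 in ES and -0.71 and 0.095 in EB. Unlike at the chromosome 14 site, mean input exceeded the median of every array. The excess was 1.89 (ES replicate 1), 0.833 (ES replicate 2), 1.11 (EB replicate 1) and 0.57 (EB replicate 2). At the 2 probes positive in ES alone, input lay below the median on every array but ES replicate 1. Measured from start to start, the nearest probes lay 876 bp before the first probe of the site and 347 bp after the last. They reached at most 0.237 and 0.050 log2 units. The other 13 regions had no such site.

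Over the whole array, 97% of 297 sites passed the limma test between the states, 85.5% higher in ES and 11.4% higher in EB. Sites were chosen by the values that are tested. Both EB arrays lay below both ES arrays at 85.9% of sites and above at 11.8%. The 2 calls in the 15 regions, both higher in ES, are given as descriptions. Of the 297 sites, 2 lay in the 15 regions, which hold 149205 of 388160 probes.

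The remaining runs were seen on 1 array each. On ES replicate 2, a 4-probe run on chromosome 11 from 22998271 to 22998527 had a mean signal of 1.46 log2 units, against 0.136 on ES replicate 1, and a ratio of -1.07. EB replicate 2 had 4 runs of 3 probes: chromosome 10 from 12813234 to 12813447 (1.33 log2 units) and from 13020252 to 13020405 (1.32), chromosome 11 from 22594747 to 22594900 (1.69) and chromosome 18 from 12870922 to 12871075 (1.08). On that array, the centred log2 ratios of these 4 runs were all below 0, from -2.39 to -0.883, and their input lay 2.17 to 4.04 log2 units above the array median. On chromosome 10 at 12813234 and chromosome 11 at 22594747, EB replicate 1 read 1.36 and 1.58 log2 units, with 2 of 3 probes positive at each, and ES replicate 2 read 1.12 and 0.985.

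Single probes positive on both arrays of 1 state and on none of the other were few. There were 28 for ES, in 10 regions, and 33 for EB, in 13 regions, of 3913 probes positive on any array (2.62% of the 149205). For comparison, 651 probes were positive on the batch 2 arrays alone and 19 on the batch 1 arrays alone. In the distal chromosome 7 region, 1993 of 26974 probes were positive on the ES arrays alone and 74 on the EB arrays alone. The share over all probes of the array was not counted. Of the 28 ES probes, 9 also had a ratio of at least 2-fold on both ES arrays, and 9 lay in a run: 7 in the chromosome 14 site and 2 in the chromosome 11 site. Of the 33 EB probes, 4 had a ratio of at least 2-fold on both EB arrays and 2 lay in a run.

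The highest 5 ES probes, by the lower of both ES values, were in these sites. The first starts on chromosome 14 at 69359192 (5.20 and 5.43 log2 units) and the next on chromosome 11 at 22875654 (5.36 and 5.07). The others start on chromosome 14 at 69359296 (4.50 and 5.43), 69359088 (4.29 and 5.42) and 69359036 (4.01 and 4.56). The highest EB probe starts on chromosome 19 at 51560689 and read 5.71 and 3.98 log2 units in EB against 0.863 and 0.765 in ES. That is at least 14.4-fold higher in EB by the mean of the arrays, with ES set at the 2-fold level. Its ratios were 6.85 and 4.64 in EB and 1.67 and 1.78 in ES. A second probe of the same region starts at 51532719 and read 4.99 and 3.04 in EB against -0.408 and -0.13 in ES. Next in order, a probe on chromosome 15 at 97419857 read 3.88 and 2.62 in EB against -0.134 and 0.511 in ES.

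These 3 EB probes had positive ratios on both EB arrays, but the probes 52 bp to either side reached at most 0.467 log2 units on any array, unlike the ES sites. The 2 probes next in order start on chromosome 11 at 22814245 (2.03 and 2.17 in EB) and on chromosome 10 at 12727523 (3.87 and 1.96 in EB). Their ratios in EB were negative, -3.12 and -0.841 at the former and -2.29 and -1.25 at the latter. No test was made for single probes.

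Averaged over 10 kb, no part of the 15 regions differed between the states by the test. Of 1346 windows of the 15 regions, limma called 0 at an adjusted p of 0.05 for the 4C signal. An unadjusted limma p under 0.05 was found in 8 windows (0.594%). Without any difference a share near 0.05 would be expected, so the test was strict here. The 0 calls therefore do not show equal signal. Over all 3831 windows of the array, 1.23% were called, 0.966% as higher in ES and 0.261% as higher in EB. The EB minus ES differences ranged from -0.324 to 0.14 log2 units, with a median of -0.00253, against -0.00423 over all windows. Both EB arrays lay above both ES arrays in 114 windows (8.47%; 7.94% over the array) and below in 158 (11.7%; 15.2% over the array).

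The largest window difference lay over the chromosome 14 site. In the window that starts at 69350001, the mean signal was 0.273 and 0.436 in ES and -0.0001 and 0.061 in EB, a difference of -0.324 (SE 0.0639, limma adjusted p = 0.225), and 91 probes entered the mean. It passed the threshold without ES replicate 1 (limma adjusted p = 0.00101) and without ES replicate 2 (limma adjusted p = 0.0324), but not without EB replicate 1 or 2 (limma adjusted p = 0.997 and 0.807); the array left alone in its group is assumed to vary like the other group. Without ES replicates 1 or 2, 165 and 141 of all 3831 windows were called, against 47 with all arrays. By the window's median in place of its mean the difference was -0.0155, and without dim-input probes -0.185. The window over the chromosome 11 site, from 22870001, differed by -0.097 (limma adjusted p = 0.973). On chromosome 10 the window from 13410001 differed by -0.116 (limma adjusted p = 1). In the direction of EB, windows on chromosome 11 from 12050001, 23020001 and 23110001 differed by 0.14, 0.129 and 0.126 (limma adjusted p = 0.841, 0.32 and 1). None of these 6 windows passed the test.

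For the ratio to input, limma called 0 of the 1346 windows (0.496% over the array, 0.287% higher in EB and 0.209% higher in ES). An unadjusted limma p under 0.05 was found in 1 window (0.0743%), so this test was strict too. The median difference was 0.0172 log2 units, against 0.00291 over the array. Both EB arrays lay above both ES arrays in 166 windows (12.3%; 10.8% over the array) and below in 96 (7.13%; 8.85% over the array). Over whole regions, limma called 0 of 15 for the 4C signal (0.813% of 123) and 0 of 15 for the ratio (0% of 123), and 0 had an unadjusted p under 0.05 in either. In 0 of the 15 regions did the arrays of the states separate, in signal (over all 123, EB above in 0% and below in 9.76%) or in ratio (EB above in 9.76% and below in 5.69%). EB minus ES of the region means ran from -0.00654 to 0.000932 log2 units for the 4C signal (SE 0.0215 to 0.0321), and from -0.0435 to 0.0632 for the ratio (SE 0.0619 to 0.113).

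The mean ratio varied more between regions than between the states. The mean ratio was highest in the second region of chromosome 10, at 0.356 and 0.26 in ES and 0.396 and 0.133 in EB. In the region of chromosome 2 from 156613333 it was -0.381 and -0.307 in ES and -0.39 and -0.172 in EB, the lowest on all arrays but EB replicate 2, where chromosome 17 was lowest at -0.195. The mean ratio over the 4 arrays correlated with the share of bright-input probes at r = -0.953 and rho = -0.857 over the 15 regions, as a description. The input signal enters both quantities, so a negative correlation is in part built in. The region with the highest share of positive probes by 4C signal had the lowest mean ratio. The 2 regions with the lowest shares had the highest mean ratios.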

How the data were processed

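Each deposited file holds the scanner intensity of 1 channel of 1 array, written by NimbleScan (version 2.3.78 in replicate 1 and 2.3.18 in replicate 2), per the file headers. No source used here gives a correction before deposit, and the lowest values lay well above 0. Of 389359 spots per array, the 1193 random controls entered no fit, and 6 spots of repeated tiling probes were averaged. No background, loess or quantile step was applied. Log2 intensity of the 4C channel, and log2 of the ratio of 4C to input, were centred on the tiling median of each array.

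Windows of 10 kb with at least 5 probes took the mean of the 4C signal or the median of the ratio, and regions with at least 10 probes the mean over probes or over window values. Windows, regions and sites of the whole array were fitted with limma 3.58.1 (lmFit, eBayes) in R 4.3.3, group means, two-sided, Benjamini-Hochberg threshold 0.05. Shares, 1 value per array, were compared by exact permutation. Other software was Python 3.11.15, numpy 2.4.6, pandas 2.3.3, matplotlib 3.10.9 and version 1.17.8 of data.table.

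The regions and the rules were chosen with earlier results of these data known. Regions named in full have a run, or are the 3 highest or lowest by mean share; windows named are those called, filled to 3 per direction by size among windows whose arrays do not overlap; runs are all named, as are up to 5 probes per state positive on both of its arrays and none of the other. Where EB or ES lay below the 2-fold level, folds are lower bounds with that group set at it.

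The replicate number marks a shared scan day, so it pairs the arrays: deviations from group means correlated at 0.078 over windows and 0.756 over regions of the 4C signal, and at 0.272 and 0.755 for the ratio. Alternatives were other thresholds, centres, background correction (normexp, offset 50), normalizations, run and window rules, no dim input, robust eBayes, the replicate block and leaving out each array. Leaving out dense surface blocks or bright input, and requiring the ratio, were added after seeing the data. On simulated data (EB minus ES), limma recovered 88% of planted differences of 0.5 log2 units among 3831 windows of the 4C signal (16% for the ratio), and 44.4% of those of 2 log2 units and 77.8% of those of 4 among 297 sites. False calls numbered 7 for windows of the 4C signal, 6 for the ratio and 1 for sites. The simulated noise was independent between arrays, with no shared scan batch. The planted differences shifted the whole window value, so recovery of a short site within a window was not covered.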

Additional observations from a re-analysis of the deposited data

How the results depend on the processing

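The EB minus ES difference in the share of positive probes changed sign with normexp (0.58 percentage points), quantile normalization (0.665), without dense surface blocks (0.0812) and without these and bright input (0.0482), and ran from -0.532 (without EB replicate 2) to 0.391 (without EB replicate 1) when single arrays were left out. For the share in runs it changed sign at 1.5-fold (0.0429), with normexp (0.603) and with quantile normalization (0.0158), and ran from -0.00704 to 0.00101 with single arrays left out. The causes were not tested. Called windows of the 4C signal numbered 1 with quantile normalization (chromosome 11 from 23020001, limma adjusted p = 0.0422; 108 called over the array, against 47 in the values reported) and 0 to 2 with single arrays left out (15 to 165 over the array); the 2 were chromosome 14 from 69350001 with chromosome 6 from 31060001 (without ES replicate 1) or chromosome 10 from 13410001 (without ES replicate 2). The last window differed by 0.00253 by its median in place of its mean. Called sites numbered 4 with quantile normalization, which added the 3-probe runs of chromosome 10 at 12813234 and chromosome 11 at 22594747, higher in EB (287 called over the array, against 288), and 1 to 2 with single arrays left out (167 to 285 over the array). With normexp 282 sites were found in the regions, 118 of them on the batch 2 arrays alone, and 2 were called (313 over the array). With the replicate block the difference stayed at -0.0704 points. Limma with the block called 0 windows, 0 regions and 2 sites in the 15 regions, so pairing changed no call there. Over the array it called 39 windows of the 4C signal (47 without the block) and 62 of the ratio (19 without it). In the 15 regions, windows with an unadjusted limma p under 0.05 numbered 14 for the 4C signal and 8 for the ratio. Without the block these were 8 and 1. Of 86 comparisons of the main results with an alternative, 71 were alike. For shares, alike means a difference of the same sign. For limma it means a count of calls in the 15 regions that was equal or within 1.5-fold. Some were bound to be alike, such as the share difference with the replicate block. With 2 arrays per group no permutation p can go under 0.33. The median 4C signal of the 15 regions lay between -0.00285 and 0.00146 log2 units and that of the random controls between -0.0389 and -0.00978. A typical probe thus lay close to the controls. Signals are centred on the tiling median, to which the 15 regions contribute, so their median near 0 is in part built in. A median also does not show sparse positive probes. In the distal chromosome 7 region it was 0.0453 and 0.101 in ES and 0.0167 and 0.0563 in EB.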
